A study of Mus musculus with 86 samples.

Results

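The mitotic-only peaks are the intervals of the mitotic SOX2 and CTCF peak lists that share no base pair with any interval in either asynchronous list of the same factor. They were selected on the called positions alone, so their number, and any measure tied to whether a peak is called, is a description. There were 256 of them among 37864 mitotic peaks. SOX2 contributed 28 of 2384 peaks and CTCF 228 of 35480. The samples are mouse embryonic stem cells of strain 129S5/SvEvBrd, self-renewing cells of the early embryo, grown in serum with 10 ng/ml leukemia inhibitory factor. Mitotic cells had received 100 ng/ml of nocodazole, a microtubule poison, for 6 h and were shaken off the dish, and asynchronous cells were untreated. Chromatin immunoprecipitation with sequencing gave 1 list per library, with 2 mitotic and 2 asynchronous libraries per factor. The labels give no share of cells in mitosis. They also do not state whether replicates are separate cultures, so p-values cover the spread between these libraries, which may be technical. The cell type was not checked, since peak lists hold no expression values. A peak missing from a list was not called there, which does not show that the factor was absent.

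Mitotic chromosomes lose many transcription factors, and sites that stay occupied are known as mitotic bookmarks. CTCF is a zinc finger protein that binds a long, GC-rich motif and, with cohesin, sets chromatin loop anchors. SOX2 is an HMG-box factor of the pluripotency network that binds a short, AT-rich motif. Transfer RNA genes are short genes transcribed by RNA polymerase III from a promoter inside the gene.

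The sequences shown are the 250 bases before the gene start for promoter windows touched by mitotic-only peaks, as RefSeq gives them on GRCm38.p6. Capitals mark, on either strand, the CTCF letters AGGNGGC, their long form with CCNNN directly before them, and the SOX2 letters CATTGT or CTTTGT. The first set holds the promoters under the CTCF regions that both mitotic libraries called and no asynchronous library did.
Asb1 (chr1:91540315-91540564, plus strand): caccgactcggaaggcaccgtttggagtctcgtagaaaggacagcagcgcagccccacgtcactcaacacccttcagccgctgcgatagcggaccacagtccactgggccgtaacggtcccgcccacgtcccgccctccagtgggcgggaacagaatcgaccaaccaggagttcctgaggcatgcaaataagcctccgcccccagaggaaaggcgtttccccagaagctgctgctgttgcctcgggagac
A430005L14Rik (chr4:153956987-153957236, plus strand): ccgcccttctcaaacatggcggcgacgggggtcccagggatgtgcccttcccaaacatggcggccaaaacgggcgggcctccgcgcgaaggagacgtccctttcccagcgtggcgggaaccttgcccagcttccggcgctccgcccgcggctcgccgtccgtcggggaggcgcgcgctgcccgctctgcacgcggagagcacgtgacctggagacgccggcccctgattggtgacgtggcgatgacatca
Rab11a (chr9:64737757-64738006, minus strand): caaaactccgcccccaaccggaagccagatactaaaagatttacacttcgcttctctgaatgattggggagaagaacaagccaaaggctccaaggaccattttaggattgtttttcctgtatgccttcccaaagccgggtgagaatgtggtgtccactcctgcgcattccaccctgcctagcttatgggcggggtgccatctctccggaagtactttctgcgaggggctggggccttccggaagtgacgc
None of these stretches holds any of the letters searched. For Rab11a the summits of both libraries lie outside the stretch shown, which covers only part of the region. The second set holds the promoter windows touched by CTCF mitotic-only peaks that do carry the long CTCF letters, both from replicate 1. The Afg1l peak (chr10:42478334-42478563) meets only the bases after the gene start, so the stretch shown and its marked letters lie outside the peak.
Afg1l (chr10:42478566-42478815, minus strand): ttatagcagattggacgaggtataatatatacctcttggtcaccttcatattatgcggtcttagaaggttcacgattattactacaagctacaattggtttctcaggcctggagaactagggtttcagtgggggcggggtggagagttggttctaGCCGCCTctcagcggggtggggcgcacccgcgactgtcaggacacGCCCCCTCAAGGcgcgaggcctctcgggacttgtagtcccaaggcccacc
Mgat1 (chr11:49243941-49244190, plus strand): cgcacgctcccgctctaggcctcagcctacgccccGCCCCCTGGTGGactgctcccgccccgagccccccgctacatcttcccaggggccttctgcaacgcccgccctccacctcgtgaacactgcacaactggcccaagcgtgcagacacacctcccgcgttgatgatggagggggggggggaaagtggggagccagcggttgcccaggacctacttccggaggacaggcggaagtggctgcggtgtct
The last is 1 of the 2 promoters under mitotic-only SOX2 peaks. It carries both a SOX2 form and the long CTCF form. The promoter not shown, that of Grsf1, holds neither SOX2 form.
Crbn (chr6:106800088-106800337, minus strand): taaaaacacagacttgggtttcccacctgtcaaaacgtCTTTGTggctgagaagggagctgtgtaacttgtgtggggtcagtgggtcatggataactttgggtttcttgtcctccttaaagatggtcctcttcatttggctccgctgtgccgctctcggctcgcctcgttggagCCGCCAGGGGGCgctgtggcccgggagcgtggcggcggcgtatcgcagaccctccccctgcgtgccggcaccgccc

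Few mitotic peaks of either factor lacked an asynchronous counterpart, and most came from replicate 1. For SOX2 they were 27 of 1976 peaks in replicate 1 (1.37%, 95% Wilson interval 0.941 to 1.98) and 1 of 408 in replicate 2 (0.245%, 0.0433 to 1.38). For CTCF they were 184 of 20142 peaks in replicate 1 (0.914%, 0.791 to 1.05) and 44 of 15338 in replicate 2 (0.287%, 0.214 to 0.385). The mean share was 0.806% ± 0.793 for SOX2 and 0.600% ± 0.443 for CTCF (SD, n = 2 each). The difference of 0.206 percentage points was smaller than the spread between replicates. It changed sign when any of 4 libraries was left out, with -0.355 without mitotic SOX2 replicate 1, -0.108 without mitotic CTCF replicate 2, and -0.188 and -0.260 without asynchronous CTCF replicates 1 and 2. Wilson intervals cover counting error only. All of these shares are fixed by the rule and describe the lists, so no test is given for them. The asynchronous lists were much longer than the mitotic ones. In replicates 1 and 2 they held 90266 and 63504 SOX2 peaks and 68328 and 67995 CTCF peaks. How far the small shares here and the short gaps described below follow from these longer lists was not tested.

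Depth was read from the lists, since fold enrichment and −log10 p at a summit give the summit reads and the local background under the peak caller's Poisson model. The lowest local background, which stands for the genome average, was 5.47 and 2.92 reads in the mitotic SOX2 libraries, against 5.44 and 3.50 in the asynchronous ones. It was 7.56 and 7.81 reads in the mitotic CTCF libraries, against 6.51 and 7.32 in the asynchronous ones.

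Mitotic-only CTCF peaks were among the weakest of their lists, whereas those of SOX2 replicate 1 were nearer to the middle. The median deposited fold of the mitotic-only CTCF peaks was 2.92 in replicate 1, against 5.02 for the other mitotic peaks, and 2.95 in replicate 2, against 4.56. Their summits held a median of 27 and 28.5 reads, against 46 and 43 reads for the other peaks. They were also narrower, with median widths of 242 and 245.5 bp against 433 and 383 bp. For SOX2 the median fold in replicate 1 was 3.48 in the 27 mitotic-only peaks, against 3.87 in the other peaks, with 27 and 28 summit reads. The replicate 2 SOX2 peak had a fold of 3.05, against a median of 5.10 for the other peaks, and 49 reads over a background of 15.4 reads.

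The share of CTCF peaks that were mitotic-only fell with each step in fold. It was 4.75% (124 of 2608) below a fold of 3, 0.900% (86 of 9553) from 3 to 4, 0.158% (11 of 6953) from 4 to 5, and 0.0428% (7 of 16366) at 5 or more. For SOX2 it was 3.68% (7 of 190) below 3, 1.28% (12 of 939) from 3 to 4, 1.31% (9 of 689) from 4 to 5 and 0 of 566 above that. These classes pool both mitotic lists of a factor and were not tested, because fold bears on whether a peak is called at all.

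**Figure D1:**
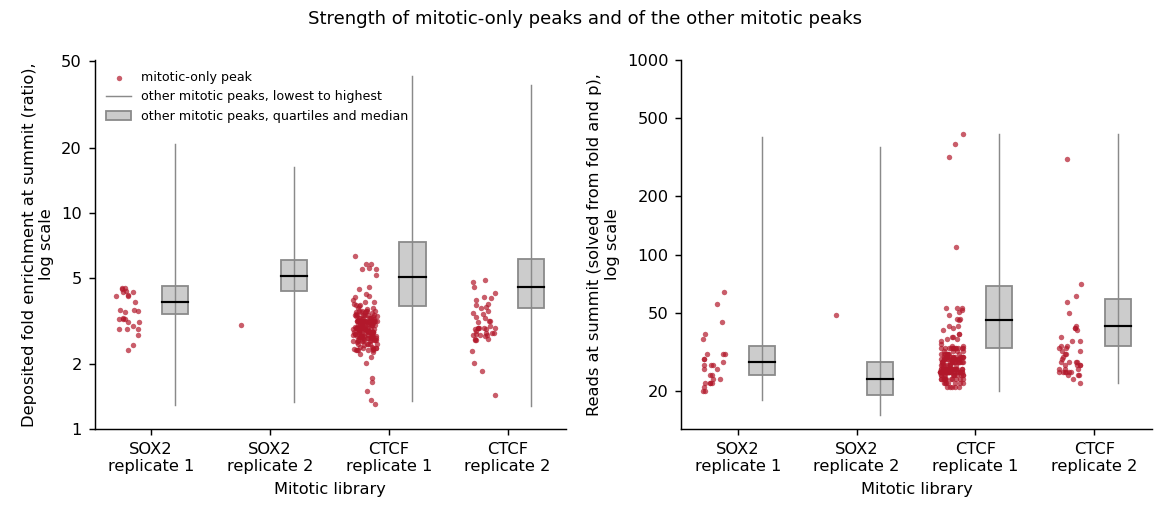
Deposited fold enrichment (left) and summit reads (right) on log scales, by mitotic library. Red points are the mitotic-only peaks, and grey boxes with a black median line are the other mitotic peaks. The CTCF mitotic-only peaks sit mostly below the boxes, with medians of 2.92 and 2.95 against 5.02 and 4.56, and 4 of them, with 309 to 418 summit reads, lie in a region of very high background on chromosome 2.

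Many mitotic-only peaks lay close to an asynchronous peak without touching it. The gap to the nearest asynchronous peak of the same factor had a median of 1.28 kb for CTCF and 4.62 kb for SOX2. It was under 1 kb for 107 of the 228 CTCF peaks and for 11 of the 28 SOX2 peaks. At the other end, 8 CTCF peaks and 3 SOX2 peaks had no asynchronous peak within 100 kb. The 8 CTCF peaks stand for 4 places, each called in both mitotic libraries. Just inside the rule, CTCF peaks at Foxc2 (a forkhead factor) and Rara (a retinoic acid receptor) touched an asynchronous peak with a gap of 0 bp, and that at Tef lay 2 bp away. Just outside it, CTCF peaks near Cilp2, Cdkn1c and E230001N04Rik overlapped by 1, 9 and 10 bp, and 22 excluded peaks overlapped by less than 50 bp. For SOX2, the peaks near Nmt2, Gigyf1 and Terf2 were inside the rule by 7, 8 and 19 bp, and those near Vmn1r238, Astn2 and Psmd7 were outside it by overlaps of 13, 50 and 67 bp.

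**Figure D2:**
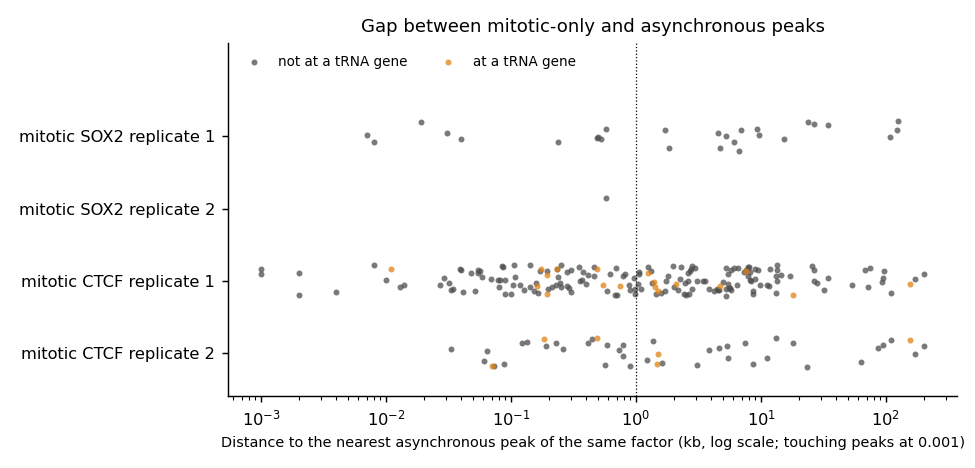
Distance from each mitotic-only peak to the nearest asynchronous peak of the same factor, in kb on a log scale, by mitotic library; orange points overlap a tRNA gene and the dotted line marks 1 kb. Both kinds of peak lie on either side of the line, with 107 of 228 CTCF peaks and 11 of 28 SOX2 peaks below it.

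CTCF mitotic-only peaks were found again in the other mitotic library less often than the other mitotic CTCF peaks were. In replicate 1, 18 of 184 (9.78%, 6.28 to 14.9) overlapped a peak of the other mitotic CTCF library, against 72.8% of the other mitotic peaks and 72.2% of the whole list. In replicate 2 the figures were 19 of 44 (43.2%, 29.7 to 57.8) against 95.9%, with 95.8% of the whole list. Among peaks with a fold under 4 the shares were 6.40% and 34.2% for mitotic-only peaks, against 34.6% and 89.2% for the others. Within that class the mitotic-only peaks were still the weaker ones, with 124 of 210 below a fold of 3, against 2484 of 11951 others. Below 3, over both libraries, the shares were 9.68% against 49.4%. The mean over libraries was 26.5% ± 23.6 against 84.3% ± 16.4 (SD, n = 2 each). This share is itself tied to whether a peak is called, so it is a description. With 2 libraries the exact permutation p for this and each further CTCF share below cannot go under 0.333, which is the value all of them took. The test treated the shares as unpaired, although mitotic-only and other peaks come from the same libraries.

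Genes lay near the CTCF mitotic-only peaks more often than near the rest of the CTCF list. Within 1 kb of an end of a protein-coding gene were 100 of 184 (54.3%, 47.1 to 61.4) in replicate 1 and 28 of 44 (63.6%, 48.9 to 76.2) in replicate 2. The other mitotic CTCF peaks had 15.1% and 13.9% there, and the whole lists 15.5% and 14%. Among peaks with a fold under 4 the shares were 55.2% and 68.4%, against 18.3% and 14.0%. Below a fold of 3 they were 61.3% against 25.7% over both libraries, a smaller ratio. A RefSeq promoter window, from 250 bases before to 50 after a gene start, was overlapped by 60 of 184 (32.6%) and 11 of 44 (25%), against 6.90% and 6.36% of the other peaks and 7.13% and 6.41% of the lists. Of the 228 peaks, 128 were at a coding gene end, 44 were inside a coding gene away from its ends, and 56 were outside coding genes. A coding gene was overlapped by 70.1% and 63.6% of the mitotic-only peaks in replicates 1 and 2, against 50.9% and 49.4% of the others.

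Transfer RNA genes were a frequent site in both libraries, with 18 of 184 (9.78%, 6.28 to 14.9) in replicate 1 and 6 of 44 (13.6%, 6.40 to 26.7) in replicate 2. The other mitotic CTCF peaks had 0.696% and 0.667% at tRNA genes, and the lists 0.779% and 0.704%. Among peaks with a fold under 4 the shares were 5.81% and 5.26%, against 0.764% and 0.957%. Over both libraries they were 11.6% against 0.856% from a fold of 3 to 4, and 1.61% (2 of 124) against 0.845% below 3. The 24 peaks covered 19 of the 408 tRNA genes in the table. They were the stronger ones, with a median fold of 3.76 at tRNA genes in replicate 1, against 3.0 at other promoters and 2.86 elsewhere. In replicate 2 these medians were 4.06 against 2.87 and 2.93.

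The highest folds were mostly at tRNA genes. Of the 10 mitotic-only CTCF peaks of highest fold, 7 in replicate 1 and 6 in replicate 2 overlapped one. The top peak of replicate 1 (chr10:93452846-93453181) had a fold of 6.31 and 53 summit reads over a background of 7.56. It covered n-TDgtc8, an aspartate tRNA gene, beside the start of Lta4h, which encodes leukotriene A hydrolase, and lay 18.1 kb from the nearest asynchronous CTCF peak. It was called in replicate 1 alone. Next came n-TQttg5, a glutamine tRNA gene, with a fold of 5.82, and n-TGtcc7, a glycine tRNA gene, with 5.81, both also in replicate 1 alone. In replicate 2 the top 10 also held peaks at Pls1, an actin-bundling protein gene, with a fold of 3.8 and in Mepe, a bone matrix protein gene, with 3.68, neither of them in replicate 1.

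tRNA gene peaks also formed the group with the most members. Replicate 1 had 6 mitotic-only CTCF peaks within 94.3 kb (chr13:23425514-23519794), at the tyrosine genes n-TYgta3, n-TYgta4 and n-TYgta5, the arginine gene n-TRtcg3, the methionine and serine genes n-TMcat6 and n-TStga1, and n-TQttg5. A further 3 lay within 28.7 kb (chr13:21907044-21935721), at n-TMcat2, n-TQctg10 and n-TDgtc13. Chromosome 13 held 19 of the 228 peaks (8.33%), against 3.66% of the other mitotic CTCF peaks. The remaining group of 3 lay within 4.73 kb (chr2:98662415-98667142), near Gm33780, and looked unlike the others. Its folds were 1.31 to 1.49, its summits had 317 to 418 reads, and its local background was 212 to 319 reads, where the library's lowest was 7.56. The part of that background in these calls was not tested.

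Both mitotic libraries called the same mitotic-only CTCF region in 17 cases, of 211 separate regions. Of these 17, 6 were at tRNA genes, 9 at a coding gene end, 3 of them over a promoter window, and 4 had no asynchronous CTCF peak within 100 kb. Their median fold was 3.52 in replicate 1 and 3.63 in replicate 2. The 6 tRNA regions had median folds of 4.48 and 4.06, against 3.27 and 2.91 for the other 11.

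The region at Asb1, which encodes a SOCS-box protein, was the strongest without a tRNA gene. It covered the promoter printed above (chr1:91540213-91540805) with folds of 5.49 and 4.88 and 46 and 42 summit reads in replicates 1 and 2. No SOX2 list had a peak there, and the nearest asynchronous CTCF peak was 5.24 kb away. At n-TQctg9, a glutamine tRNA gene next to the start of Rab11a (chr9:64737859-64738243), the folds were 5.51 and 4.81. Rab11a encodes a small GTPase of recycling endosomes. A mitotic and an asynchronous SOX2 peak lay at the same place.

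The other 5 tRNA regions were n-TMcat16 (methionine, folds 5.58 and 4.08), n-THgtg4 (histidine, 4.53 and 4.04), n-TVtac3 (valine, 4.44 and 3.97), n-TMcat6 with n-TStga1 (3.71 and 4.26) and n-TRtcg3 (3.13 and 3.75). The region at n-TVtac3 was 155.7 kb from an asynchronous CTCF peak and overlapped no SOX2 peak. The region at n-TMcat16 lay 11 bp from an asynchronous CTCF peak. On chromosome Y a region 11.2 kb from Gm52481 had folds of 5.14 and 3.63.

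Among protein-coding genes, Eif4b, a translation initiation factor, had folds of 4.23 and 3.15. Cluh, whose product binds mRNAs of mitochondrial proteins, had 3.45 and 2.89, and the promoter of A430005L14Rik had 3.52 and 2.74. Hoxa3 and Hoxa4, neighbouring homeobox genes, shared a region with 2.91 and 2.95. Slc24a2, a cation exchanger, had 2.57 and 2.59. Other regions lay 57.0 kb from Gabrg1, a GABA receptor subunit (2.72 and 4.56), 35.0 kb from Gm3320 (3.27 and 2.91), and near Gm33780 (1.49 and 1.44, over backgrounds of 212 and 214 reads). The Gabrg1 region had the largest gap of all, 202.6 kb. Its background was 16.7 reads in replicate 1 and 8.21 in replicate 2.

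**Figure D3:**
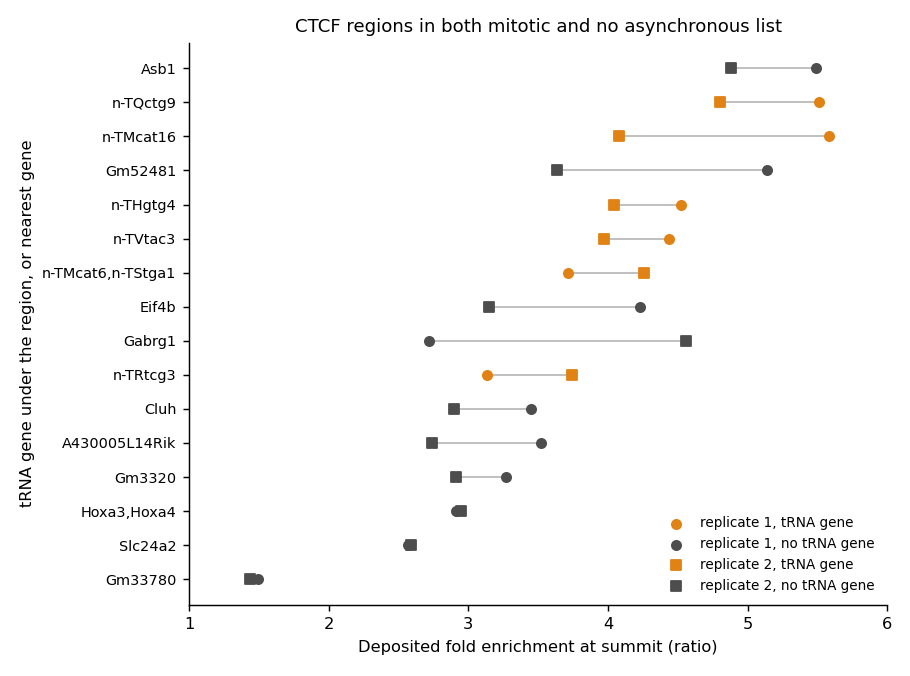
Deposited fold of 16 of the 17 CTCF regions found in each mitotic list and absent from every asynchronous CTCF list, with replicate 1 as circles and replicate 2 as squares, in order of the mean. Orange marks the 6 regions at tRNA genes, whose folds lie between 3.13 and 5.58; the region near Gm33780 is lowest with 1.49 and 1.44.

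Most CTCF mitotic-only peaks, and few SOX2 ones, overlapped a peak of the other factor called in asynchronous cells. An asynchronous SOX2 peak overlapped 113 of 184 CTCF mitotic-only peaks (61.4%, 54.2 to 68.1) in replicate 1 and 28 of 44 (63.6%, 48.9 to 76.2) in replicate 2. The other mitotic CTCF peaks had 38.8% and 39.4%, and the lists 39% and 39.5%. The mean was 62.5% ± 1.57 against 39.1% ± 0.417 (SD, n = 2 each). A SOX2 region of both asynchronous libraries was overlapped by 92 of 184 (50%) and 24 of 44 (54.5%), against 21.5% and 21.6% of the other peaks, with 21.7% of either list. Among peaks with a fold under 4 the either-library shares were 60.5% and 63.2%, against 36.3% and 36.7%. Below a fold of 3 they were 61.3% against 43.9% over both libraries.

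Overlap with SOX2 differed between gene ends and other places more among the other mitotic CTCF peaks than among the mitotic-only ones. Differences by position were not tested. At coding gene ends 86 of the 128 CTCF mitotic-only peaks (67.2%, 58.7 to 74.7) overlapped asynchronous SOX2, against 64.4% of 5143 other peaks there. Away from gene ends it was 55 of 100 (55.0%, 45.2 to 64.4), against 34.7% of 30109. At tRNA genes it was 22 of 24 mitotic-only peaks, against all 241 other peaks. In promoter windows it was 54 of 71 (76.1%), against 71.7% of 2349.

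A mitotic SOX2 peak overlapped 21 of 184 CTCF mitotic-only peaks (11.4%) in replicate 1 and 7 of 44 (15.9%) in replicate 2. The other mitotic CTCF peaks had 1.95% and 1.72%, and the lists 2.04% and 1.76%. Of these 28 peaks, 11 were at tRNA genes. Others overlapped the promoter windows of Zfp428 (fold 3.15), Efna5, an ephrin (2.74), and Sinhcaf, with 3010003L21Rik also nearest (3.06). Another overlapped a promoter window with Rn7sk as nearest gene (3.51), the gene of a small nuclear RNA that restrains P-TEFb. No window of Rn7sk or 3010003L21Rik itself was among those touched. Further ones lay in Srsf1, a splicing factor (3.09), Rb1, the retinoblastoma gene (2.33), Vav2, a guanine nucleotide exchange factor (3.40), and Zswim6 (2.84). Away from coding genes, 4 were the high-background peaks near Gm33780, single ones lay near Gm24176, Gm40843 and Slc27a6, and 2 described further on lay in Gm40736 and Gm38407. In all, 26 CTCF mitotic-only peaks overlapped both mitotic and asynchronous SOX2, 2 mitotic SOX2 alone, 115 asynchronous SOX2 alone and 85 no SOX2 peak.

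**Figure D4:**
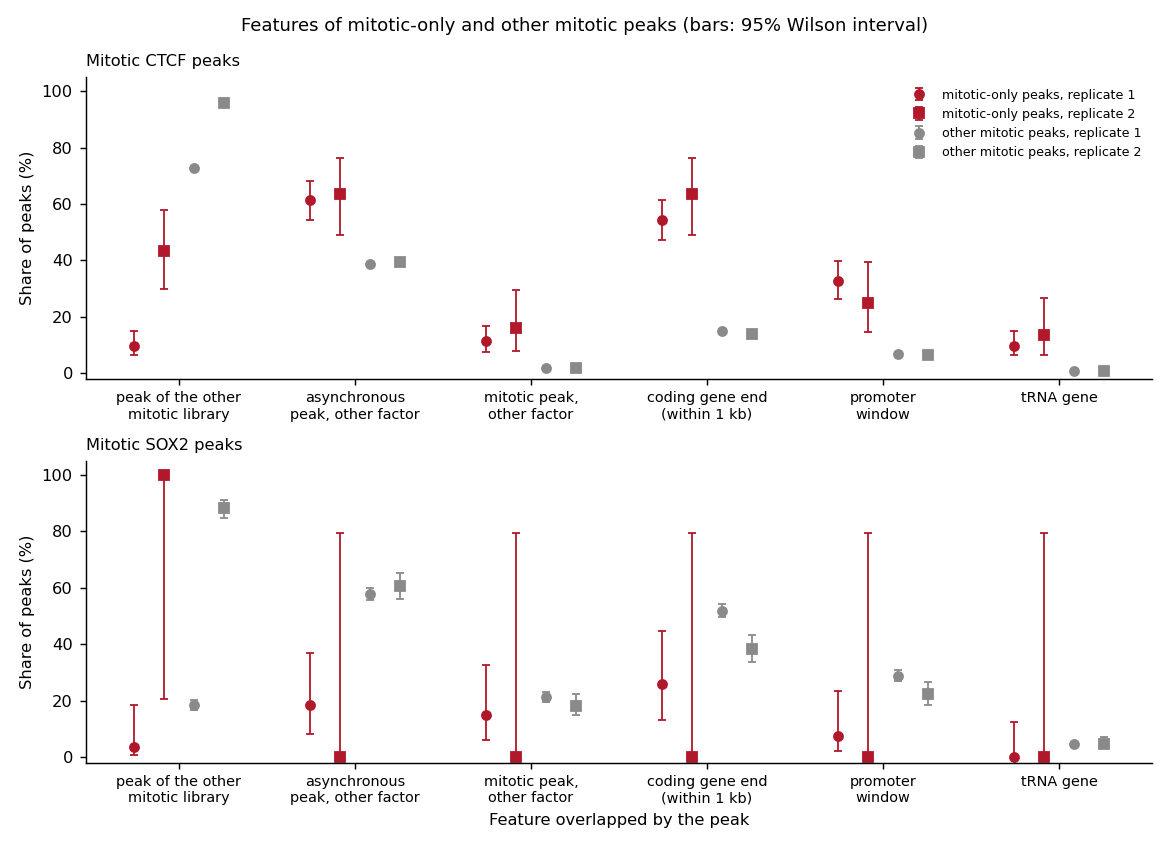
Share of mitotic-only peaks (red) and of the other mitotic peaks (grey) that overlap each feature, for CTCF (top) and SOX2 (bottom), with circles for replicate 1, squares for replicate 2 and bars for 95% Wilson intervals. For CTCF the red points are higher for every feature but the other mitotic library; the SOX2 replicate 2 points rest on 1 peak.

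Mitotic-only SOX2 peaks mostly lay away from asynchronous CTCF peaks, unlike the other mitotic SOX2 peaks, and a smaller share was at gene ends. An asynchronous CTCF peak overlapped 5 of 27 (18.5%, 8.18 to 36.7) in replicate 1 and 0 of 1 in replicate 2, against 57.7% and 60.7% of the other peaks and 57.2% and 60.5% of the lists. With 1 peak in replicate 2 the mean of 9.26% ± 13.1 (SD, n = 2) is poorly known, and the exact permutation p was 0.333. At coding gene ends were 7 of 27 (25.9%, 13.2 to 44.7), against 51.9% of the other replicate 1 peaks and 51.6% of the list. The single replicate 2 peak was not at a gene end, where 38.2% of its list lay. None of the 28 was at a tRNA gene (0 to 12.1%), against 106 of 2356 others (4.50%) and 4.4% and 4.66% of the lists. A promoter window was under 2 of 27 in replicate 1, against 28.5% of that list, and under 0 of 1 in replicate 2, against 22.3%. A mitotic CTCF peak overlapped 4 of 27 (14.8%) and 0 of 1, against 21.3% and 18.2% of the other peaks and 21.3% and 18.1% of the lists. Of the 28 peaks, 21 overlapped no CTCF peak, 3 an asynchronous one alone, 2 both kinds and 2 a mitotic one alone.

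A pair of regions was called for both factors in mitotic cells and for neither in asynchronous cells. One lies in Gm40736, with a SOX2 peak (chr10:91418645-91418858) of fold 3.53 and 26 summit reads and a CTCF peak (chr10:91418606-91418846) of fold 3.34 and 30 reads. The other lies in Gm38407, with a SOX2 peak (chr12:10449555-10449934) of fold 3.48 and 31 reads and a CTCF peak (chr12:10449713-10449956) of fold 3.39 and 28 reads. All 4 calls came from replicate 1, and neither region was called in replicate 2 of either factor. The nearest asynchronous peak of the same factor was 6.10 and 9.27 kb from the SOX2 peaks and 6.57 and 11.1 kb from the CTCF peaks.

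Overlap between the mitotic SOX2 libraries was limited to 1 of 27 mitotic-only peaks in replicate 1, against 18.2% of its whole list, and the 1 peak of replicate 2, against 88.2%. That shared region lies on chromosome 7 (chr7:12011535-12011755), 5.85 kb from Vmn1r-ps60, a vomeronasal receptor pseudogene. Its folds were 2.45 and 3.05, with 64 and 49 summit reads over 25.5 and 15.4 background reads in replicates 1 and 2. That background was 4.66 times the library's lowest in replicate 1. A second replicate 1 peak nearby (chr7:12015587-12015861), 9.54 kb from Gm18854, had 56 reads, a fold of 4.44 and the highest −log10 q of the SOX2 set, 15.5. Its background was 11.8 reads, 2.16 times the library's lowest. With the peak near Vmn1r238, 3 of the 28 SOX2 peaks had a vomeronasal gene or pseudogene as nearest gene (10.7%), against 11 of 2356 others (0.467%). Those 3 peaks stand for 2 places, since 2 of them are the shared region.

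The highest SOX2 fold, 4.48, was in Caln1, a calcium-binding protein gene, 122.6 kb from an asynchronous peak. Crbn, the cereblon substrate receptor of a ubiquitin ligase, followed with 4.47 and 29 reads at its promoter, where both CTCF conditions had a peak. Grsf1, an RNA-binding protein gene, was the only other promoter, with 3.25. Folds between 4.12 and 4.44 were found in Lhfpl3 and Stau2 and near Gm11658, 4930470H14Rik, Epas1 (a hypoxia-inducible factor), Tmem158 and Gm18854. Folds between 3.12 and 3.87 were found near or in Gm35440, Mup8, Gigyf1, Nmt2, Prr13, Fndc10, Slc18a1 and Gm3711. The lowest, from 2.33 to 2.98, were near or in Vmn1r238, Tex2, 9130204K15Rik, 6820431F20Rik, Terf2 and Gm35690. The gap was largest at Gm35690, 125.8 kb. Of the 28 SOX2 peaks, 11 overlapped a RefSeq gene of any kind and 2 were over 50 kb from any, shares not computed for the other peaks. A protein-coding gene was overlapped by 7 of 27 (25.9%) in replicate 1 and 0 of 1 in replicate 2, against 61.6% and 53.1% of the other mitotic SOX2 peaks.

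None of the mitotic-only peaks had a nearest gene in the lists of cohesin, condensin and CTCF genes, of pluripotency genes or of mitosis genes. Among the other mitotic CTCF peaks, 24, 14 and 6 of 35252 did, and among the other SOX2 peaks 3, 11 and 1 of 2356. At these background rates a set of 228 or 28 peaks is too small to show a difference. Chromosomes X and Y held 3 of 184 (1.63%, 0.556 to 4.68) and 2 of 44 (4.55%, 1.26 to 15.1) of the CTCF mitotic-only peaks, against 1.36% and 0.909% of the others and 1.36% and 0.919% of the lists. The 2 peaks of replicate 2 are the regions at n-TVtac3 and near Gm52481. The intervals cover counting error only and do not test a difference from the other peaks.

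In promoters under mitotic-only CTCF peaks, the long CTCF letters were near their share of all windows and below that under the other peaks. The long form, CCNNN directly followed by AGGNGGC, stood in 2 of 78 RefSeq promoter windows that they touched (2.56%, 0.706 to 8.88), those of Afg1l and Mgat1, against 383 of 1734 windows under the other mitotic CTCF peaks (22.1%, 20.2 to 24.1). All 32851 promoter windows had 3.43%. Where every peak over the window had a fold under 4, it was 2 of 75 (2.67%), against 82 of 621 (13.2%, 10.8 to 16.1). The short letters AGGNGGC, which the long form contains, were in 39 of 78 windows (interval 39.2% to 60.8%), against 54.7% under the other peaks and 29.4% of all windows. The CTCF peak touching the Afg1l window had a fold of 2.80 and that over Mgat1 3.16, both in replicate 1 alone.

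CATTGT was in 2 of the 78 windows (2.56%) and CTTTGT in 6 (7.69%), against 6.81% and 13.3% under the other mitotic CTCF peaks and 12.6% and 18.7% of all windows. The median GC content of the windows was 66.2% under mitotic-only CTCF peaks, against 63.3% under the others and 52.7% overall. Where every peak over the window had a fold under 4, it was 66.3% under both kinds of peak (n = 75 and 621). Both windows under mitotic-only SOX2 peaks, at Crbn and Grsf1, held the long CTCF letters, against 44 of 694 (6.34%) under the other mitotic SOX2 peaks. Windows were scanned whole, so a match can lie beside the peak, and several windows can share a peak.

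**Figure D5:**
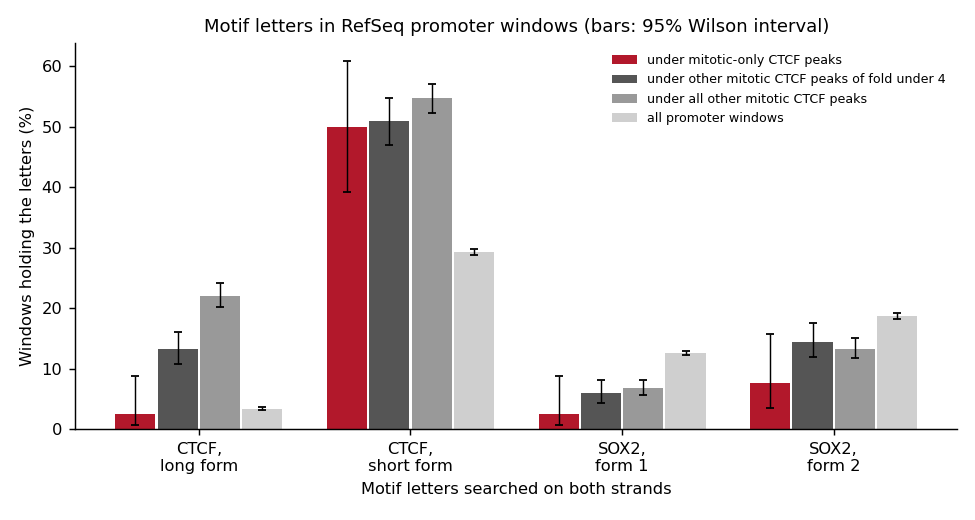
Share of RefSeq promoter windows that hold each set of letters, for windows under mitotic-only CTCF peaks (red, n = 78), under other mitotic CTCF peaks of fold under 4, under all other mitotic CTCF peaks and for all windows, with 95% Wilson intervals. The long CTCF form is in 2.56% of the windows under mitotic-only peaks, against 13.2% and 22.1% under the others and 3.43% of all windows. SOX2 form 1 is CATTGT and form 2 is CTTTGT.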

How the data were processed

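Peak lists of 8 of the 86 libraries were used, and the rest were not analysed here. The submitters' processing notes name the build mm10 and the tools MACS2 (2.1.1.20160309), BWA (0.7.17), CASAVA (1.4) and SAMtools, with options, filters and control libraries not given in the sources used here. Each narrowPeak list the authors deposited belongs to a single library. Its columns are a score, a fold enrichment (a ratio of summit coverage to local background), −log10 p-value, −log10 q-value and a summit offset. The deposited score is a display value and was not used. Fold and −log10 values are the authors' and describe or rank peaks. Where they stand side by side across lists, or are pooled into fold classes, the lists were not scaled to each other.

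The members and lists were chosen with earlier results of these data known. Overlap meant at least 1 bp. Summit reads and background were solved from fold and −log10 p with a pseudocount of 1 read. Whole reads, within 0.02, came out for at least 99.9% of mitotic peaks and of 5000 asynchronous peaks per list. Gene positions came from 49943 RefSeq genes on GRCm38.p6, which mm10 follows; the table has no strand, so gene ends are either boundary of the 21887 protein-coding genes. Promoter windows and their sequences are RefSeq's. No genome was used here, so motif letters were searched in promoter windows alone. Their orientation was checked on 351 pairs of overlapping windows of opposite strand, all of which matched.

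The genes named were all SOX2 peaks, all CTCF regions of both mitotic libraries, the 10 CTCF peaks of highest fold per library, peaks over a mitotic peak of the other factor, those nearest the rule's limit and the 3 largest groups within 100 kb. The tRNA, other-library and fold-under-4 comparisons were added after the data were seen, as were the promoters at Afg1l and Mgat1 and their motif comparison among peaks with a fold under 4. For 1 of the regions of both mitotic libraries the values, and for another the host gene, are not reported here. Shares other than those the rule fixes were compared over libraries by two-sided exact permutation tests, which did not pair the peak groups of a library. Code was tested on simulated data, where its overlaps equalled those of bedtools 2.31.1. Python 3.11.15, pandas 2.3.3 and scipy 1.17.1 were used.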

Additional observations from a re-analysis of the deposited data

Results flagged for a closer look

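Overlap with the other factor in asynchronous cells moved in opposite directions for SOX2 and CTCF, in every library. For SOX2, mitotic-only peaks minus other mitotic peaks gave -39.2 percentage points in replicate 1 and -60.7 in replicate 2, the last from 1 peak. For CTCF the same difference was 22.6 percentage points in replicate 1 and 24.2 in replicate 2. The difference between the factors had an exact permutation p of 0.333, the smallest that 2 against 2 libraries allow, so it did not pass a threshold of 0.05. No cause was tested.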

How the results depend on the processing

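Of the values recomputed, 5 changed sign and 46 moved by more than 1 SD between replicates or, for a count, by over 1.5 times. The other 69 stayed within these limits, which are wide where the 2 replicates differ. With a −log10 q of at least 5, mitotic-only peaks numbered 13 for SOX2 and 83 for CTCF and shared CTCF regions 10, and CTCF shares were 63.9% for asynchronous SOX2, 6.02% for chromosomes X and Y, 37.3% for gene ends and 25.3% for tRNA genes. The share in the other mitotic CTCF library was then 32.5%, and the overlap of SOX2 peaks with asynchronous CTCF 7.69%. With a fold of at least 5 there were 0 SOX2 and 7 CTCF peaks, 0 shared regions of either factor and a SOX2 minus CTCF difference of -0.0347 percentage points. The CTCF shares among these 7 were 85.7% for asynchronous SOX2, 14.3% for X and Y, 42.9% for gene ends, 57.1% for the other mitotic library and 71.4% for tRNA genes; the SOX2 overlap gave no value. With no asynchronous peak within 1 kb there were 17 SOX2 and 121 CTCF peaks, 0 shared SOX2 regions, 55.4% of CTCF peaks over asynchronous SOX2 and 5.88% of SOX2 peaks over asynchronous CTCF. SOX2 regions of both asynchronous libraries gave 50.9% and mitotic SOX2 peaks 12.3%. A gene end window of 2.5 kb gave 63.6%. A fold under 4, chosen after seeing the data, gave 5.71% at tRNA genes.

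Leaving out each library gave 1 to 104 SOX2 peaks (104 without asynchronous SOX2 replicate 1, 1 without mitotic SOX2 replicate 1) and 44 to 401 CTCF peaks (44 without mitotic CTCF replicate 1, 376 and 401 without asynchronous CTCF replicates 1 and 2). The difference ran from -0.355 to 2.42 percentage points, and was -0.188, -0.260 and -0.108 without asynchronous CTCF replicate 1, asynchronous CTCF replicate 2 and mitotic CTCF replicate 2. Shared regions numbered 1 to 2 for SOX2 and 33 to 44 for CTCF. The shares ran from 0 to 31.7% for CTCF at SOX2 peaks, 61.4% to 68.4% for SOX2 at CTCF peaks, 1.33% to 4.55% for X and Y, 52.1% to 63.6% for gene ends, 9.78% to 43.2% for the other mitotic library and 9.78% to 17.5% for tRNA genes.

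Replicate numbers are shared by the labels, but no source says that they pair cultures. With the replicate block, each mitotic list set against the asynchronous list of its own number, there were 389 CTCF peaks with 66.1% over asynchronous SOX2 and 16.2% at tRNA genes, and 38 SOX2 peaks. The causes of these changes were not tested, apart from those that follow from shorter or fewer lists. The SOX2 shares of replicate 2 rest on 1 peak.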
